A study of Mus musculus with 8 samples.

Results

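The genes of glycosaminoglycan synthesis and sulfation are the enzymes and the transporter that build, sulfate and trim the chondroitin, dermatan, keratan and heparan sulfate chains of proteoglycans, and the synthases of hyaluronan. They were a list of 41 gene symbols, and all probe sets annotated to exactly 1 of these symbols were taken and averaged per gene. Of the 41 genes, 39 were measured, by 72 probe sets, among 18193 genes and 34945 probe sets with 1 symbol in all. Xylt1 and Ndst1 were not analysed here.

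Total RNA from long bone (tibia and femur) was measured on 8 single-colour microarrays, 4 for Hyp and 4 for wild-type (WT) mice, all of them males at 12 days of age. Hyp mice lack the 3′ end of Phex on a C57BL/6 background and are a model of X-linked hypophosphatemia, in which phosphate is lost through the kidney and bone mineralizes poorly. The WT mice are labelled wild type, with no strain named, and the labels give a standard diet and no treatment. Each RNA combined 2 bone samples of 1 genotype. The labels do not say how many animals these were. A p-value here sets the difference only against the spread of RNA samples of 1 genotype, which may be technical. The series compares the genotypes to find genes tied to Fgf23 expression and mineralization.

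A glycosaminoglycan is a long sugar chain, and most kinds are attached to a serine of a core protein through a short linker of xylose, galactoses and glucuronic acid. Chondroitin sulfate enzymes then add an N-acetylgalactosamine, and heparan sulfate enzymes an N-acetylglucosamine, after which the chain is polymerized and sulfated in the Golgi with the donor PAPS. Hyaluronan is made at the plasma membrane, with no core protein and no sulfate. Cartilage depends on heavily sulfated chondroitin chains on aggrecan, and heparan sulfate in bone binds FGFs, Wnts, BMPs and hedgehog proteins.

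Values are on the log2 scale, and each probe set had been set to 0 at the middle of its 8 arrays, so no level can be read. A difference is the Hyp mean minus the WT mean, with its standard error (SE) from limma, and a gene is said to have risen or fallen where the adjusted p was under 0.05 over all 18193 genes. Phex, the gene that lacks its 3′ end in Hyp mice, was low on the Hyp arrays. Its probe sets differed by -8.31 ± 0.21 and -5.03 ± 0.20 (limma adjusted p = 5.22e-08 and 2.15e-06), and Fgf23 was higher by 5.61 ± 0.19 (adjusted p = 4.1e-07). Whether these Phex probe sets lie in the deleted stretch was not examined. WT replicate 3 stood apart on the second principal component, at -38.4 against -10.3 to 17.5 on the other arrays. The mean of 14 skeletal muscle markers was 1.63 on that array, -1.16 on Hyp replicate 2 and between -0.50 and 0.25 on the rest. Without both arrays, 7 members were higher and 6 lower.

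Of the 39 measured genes, 7 rose and 8 fell in Hyp bone, where fewer cells of a type and less RNA per cell cannot be told apart. The 15 are 38.5% of the measured genes, while 12.9% of all genes passed (6.54% higher and 6.32% lower). The median size of the difference was 0.20 for these genes and 0.09 for all genes, while the signed medians were near 0, at -0.0062 and 0.02. Arrays of the genotypes did not overlap for 18 of the 39 genes, or 46.2%, against 19.2% of all genes. The list was chosen with earlier results of these data known, and the background of all genes could not be filtered by level. The shares set beside all genes are thus descriptions and not tests of the pathway. The changes were small, and the largest was the 1.94-fold rise of Chst1. By type of chain, 3 of 13 chondroitin and dermatan enzymes fell and 1 rose (median difference -0.19), 4 of 13 heparan enzymes rose and 1 fell (median 0.18), and none of 3 hyaluronan synthases passed. Supply genes for sulfate and glucuronic acid fell in 3 of 4 cases. Leaving out either of Hyp replicates 3 and 4, or either of WT replicates 1 and 4, brought the count of genes that rose to 4 and that of heparan enzymes among them to 2. Leaving out WT replicate 3 brought the count of chondroitin enzymes that fell to 5.

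**Figure D1:**
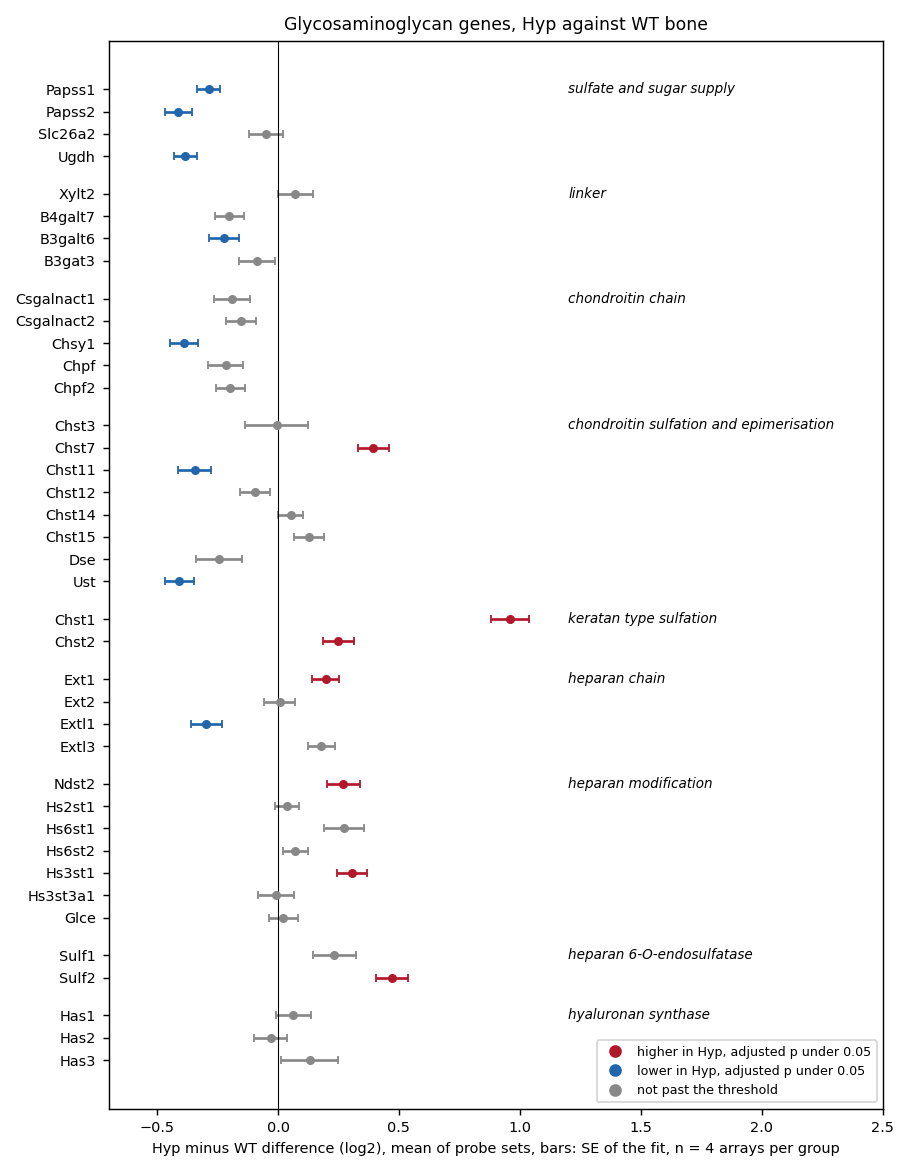
Difference between Hyp and WT bone (log2, x axis) for each of the 39 measured genes, grouped by role, with the SE of the fit as bars and 4 arrays per group. Supply and chondroitin chain genes lie left of 0, Chst1 lies at 0.96, and most heparan enzymes lie at or right of 0.

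The bases just before the transcription start are shown for 3 genes that fell (Ugdh, Ust and Chsy1) and 2 that rose (Chst2 and Sulf2), as a pair of groups that moved in opposite directions. The genes were picked by hand, and the start shown is the outermost of the gene in RefSeq (build GRCm38.p6). Each line gives 250 bases, 5′ to 3′ on the strand of the gene, and capitals mark the GC box GGGCGG or its reverse complement. The windows are chr5:65435843-65436092 on the minus strand, chr10:8518826-8519075 on the minus strand, chr7:66109242-66109491 on the plus strand, chr9:95407271-95407520 on the minus strand and chr2:166155684-166155933 on the minus strand.
Ugdh: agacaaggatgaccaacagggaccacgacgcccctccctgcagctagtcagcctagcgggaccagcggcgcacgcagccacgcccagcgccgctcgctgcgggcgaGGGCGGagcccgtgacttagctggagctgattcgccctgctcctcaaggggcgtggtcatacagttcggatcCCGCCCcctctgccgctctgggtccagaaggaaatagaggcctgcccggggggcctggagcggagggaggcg
Ust: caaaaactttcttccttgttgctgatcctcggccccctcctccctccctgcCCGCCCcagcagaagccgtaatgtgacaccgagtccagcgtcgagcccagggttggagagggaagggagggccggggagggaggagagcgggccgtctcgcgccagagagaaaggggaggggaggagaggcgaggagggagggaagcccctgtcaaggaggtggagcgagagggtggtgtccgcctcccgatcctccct
Chsy1: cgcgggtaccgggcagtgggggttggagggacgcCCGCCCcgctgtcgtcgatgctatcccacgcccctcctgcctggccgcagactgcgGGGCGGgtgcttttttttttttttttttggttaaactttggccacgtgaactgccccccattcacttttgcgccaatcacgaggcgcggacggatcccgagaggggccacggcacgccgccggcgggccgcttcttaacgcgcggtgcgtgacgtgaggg
Chst2: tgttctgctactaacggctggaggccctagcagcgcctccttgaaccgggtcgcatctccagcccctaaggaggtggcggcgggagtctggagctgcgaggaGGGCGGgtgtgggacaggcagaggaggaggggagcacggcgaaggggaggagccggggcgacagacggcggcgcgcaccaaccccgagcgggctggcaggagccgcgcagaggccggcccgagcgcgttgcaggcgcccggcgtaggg
Sulf2: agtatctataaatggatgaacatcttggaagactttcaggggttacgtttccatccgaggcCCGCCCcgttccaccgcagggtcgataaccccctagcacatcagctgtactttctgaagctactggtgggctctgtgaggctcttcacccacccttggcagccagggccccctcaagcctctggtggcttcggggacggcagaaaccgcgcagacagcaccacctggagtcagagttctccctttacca
Ugdh and Chsy1 hold 2 GC boxes each and the other 3 hold 1 each. Windows of Chst1, Hs3st1, B3galt6 and Extl1, which also passed, and a second window of Sulf2 hold none and are not shown. Of the measured genes, 32 had at least 1 promoter in the table, with 39 windows of 250 bases. A GC box on either strand stood in 23 of these 39 windows, or 59.0%, against 32.7% of 32841 windows of all genes. The share was 4 of 7 windows (6 genes) for the genes that rose, 6 of 10 (8 genes) for those that fell and 13 of 22 (18 genes) for the rest. Some genes had more than 1 window, so windows are not separate genes. TATAAA on either strand stood in 2 of the 39 windows (5.13%, against 12.4% of all windows), CCAAT in 16 (41.03% against 33.9%) and CACGTG in 4 (10.3% against 6.02%). None of these strings contains another, and the GC share of the windows had a median of 64% against 52.4% for all. These are matches of letters and not measured sites.

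Of 4 genes that supply the precursors, 3 fell in Hyp bone. Papss2, which makes the sulfate donor PAPS and is the main such enzyme of cartilage, read -0.13, -0.24, -0.19 and -0.08 on the Hyp arrays and 0.32, 0.25, 0.15 and 0.30 on the WT arrays. It fell by 0.41 ± 0.06 (SE, n = 4 per group), with limma adjusted p = 0.000996. Ugdh, which makes UDP-glucuronic acid, read -0.20, -0.25, -0.21 and -0.15 on the Hyp arrays and 0.18, 0.15, 0.15 and 0.24 on the WT arrays. Ugdh fell by 0.38 ± 0.05 (adjusted p = 0.000528). Papss1, the other PAPS synthase, read -0.23, -0.09, -0.21 and -0.18 on the Hyp arrays and 0.10, 0.11, 0.09 and 0.13 on the WT arrays. Papss1 fell by 0.29 ± 0.05 (adjusted p = 0.00311). For all of these genes every Hyp array lay below every WT array, and leaving out any single array kept each of them past the threshold. The fourth supply gene, the sulfate transporter Slc26a2, differed by -0.05 ± 0.07 (adjusted p = 0.698), with arrays of the genotypes overlapping. Among the 4 probe sets of Papss2, 3 fell, at -0.66 ± 0.09, -0.57 ± 0.10 and -0.50 ± 0.07, and the other lay at 0.08 ± 0.09 (adjusted p = 0.623), so the mean understates those that fell.

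Of 4 measured linker enzymes, 1 fell and none rose. B3galt6, which adds the second galactose, read -0.10, -0.05, -0.15 and -0.13 on the Hyp arrays and 0.26, -0.0034, 0.07 and 0.13 on the WT arrays. It fell by 0.22 ± 0.06 (limma adjusted p = 0.0376), with WT replicate 2 just above the Hyp arrays. This call was lost when any one Hyp array, WT replicate 1 or WT replicate 4 was left out, where the difference lay between -0.24 and -0.17 with adjusted p from 0.0542 to 0.101. Of its 3 probe sets 1 passed, at -0.39 ± 0.08, and the others lay at -0.14 ± 0.07 and -0.14 ± 0.09. B4galt7, which adds the first galactose, read -0.14, -0.19, -0.21 and 0.03 on the Hyp arrays and 0.04, 0.08, 0.05 and 0.13 on the WT arrays. It did not pass, at -0.20 ± 0.06 (adjusted p = 0.0558), but did without Hyp replicate 4, at -0.25 (adjusted p = 0.0159). It also passed with quantile normalization, array medians at 0 or array weights, at -0.21, -0.21 and -0.20 (adjusted p = 0.0491, 0.0482 and 0.0473). Of its 2 probe sets 1 passed, with the suffix _x_at (probes that may match other genes), at -0.27 ± 0.07 (adjusted p = 0.0394), and the other lay at -0.13 ± 0.08 (adjusted p = 0.353). Xylt2, which attaches the xylose, lay at 0.07 ± 0.07 and B3gat3, which adds the closing glucuronic acid, at -0.09 ± 0.07 (adjusted p = 0.568 and 0.506).

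All 5 enzymes that start and extend the chondroitin chain had a difference below 0, and 1 of them passed. Chsy1, a chondroitin synthase with both transferase activities, read -0.18, -0.15, -0.13 and -0.23 on the Hyp arrays and 0.22, 0.13, 0.35 and 0.18 on the WT arrays. It fell by 0.39 ± 0.06 (limma adjusted p = 0.00157), and no array of one genotype reached those of the other. Its partners in polymerization, Chpf and Chpf2, lay at -0.22 ± 0.07 and -0.20 ± 0.06 (adjusted p = 0.079 and 0.0576). Csgalnact1 and Csgalnact2, which add the first N-acetylgalactosamine, lay at -0.19 ± 0.08 and -0.15 ± 0.06 (adjusted p = 0.133 and 0.147). Each of 3 of these 4 passed with 1 WT array fewer: Chpf2 at -0.23 (adjusted p = 0.0264) and Csgalnact1 at -0.25 (adjusted p = 0.0414) without WT replicate 3, and Chpf at -0.26 (adjusted p = 0.048) without WT replicate 2. Chpf2 also passed with quantile normalization, array medians at 0 or array weights, at -0.21, -0.21 and -0.22 (adjusted p = 0.041, 0.049 and 0.0273). Chpf2 read -0.05, -0.15, -0.06 and -0.12 on the Hyp arrays and 0.21, 0.04, -0.01 and 0.17 on the WT arrays, with no overlap, and 1 of its 2 probe sets passed by itself, at -0.25 ± 0.06.

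Enzymes that sulfate or epimerize chondroitin went both ways, with 2 of 8 lower and 1 higher. Ust, which sulfates the uronic acid, read -0.16, -0.31, -0.18 and -0.25 on the Hyp arrays and 0.20, 0.18, 0.07 and 0.28 on the WT arrays. It fell by 0.41 ± 0.06 (limma adjusted p = 0.00136), with both probe sets lower and no overlap. Chst11, a chondroitin 4-O-sulfotransferase of growth plate cartilage, read -0.08, -0.20, 0.01 and -0.12 on the Hyp arrays and 0.28, 0.30, 0.09 and 0.31 on the WT arrays. It fell by 0.34 ± 0.07 (adjusted p = 0.00749), with WT replicate 3 closest to the Hyp arrays. Neither of its probe sets passed alone, at -0.22 ± 0.07 and -0.47 ± 0.13 (adjusted p = 0.0937 and 0.0645 over 45037 probe sets). Chst7, a chondroitin 6-O-sulfotransferase, read 0.09, 0.35, 0.37 and 0.32 on the Hyp arrays and -0.13, -0.11, -0.11 and -0.09 on the WT arrays. It rose by 0.39 ± 0.06 (adjusted p = 0.00274), with Hyp replicate 1 nearest to WT and the 4 WT values close together. Chst3, the other chondroitin 6-O-sulfotransferase, lay at -0.01 ± 0.13 (adjusted p = 0.982), with WT arrays from -0.32 to 0.32. The other 4 did not pass: Dse, the dermatan epimerase, at -0.24 ± 0.10, Chst12, another 4-O-sulfotransferase, at -0.09 ± 0.06, Chst14, the dermatan 4-O-sulfotransferase, at 0.05 ± 0.05 and Chst15, which adds a second sulfate to the galactosamine, at 0.13 ± 0.06 (adjusted p from 0.126 to 0.549).

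**Figure D2:**
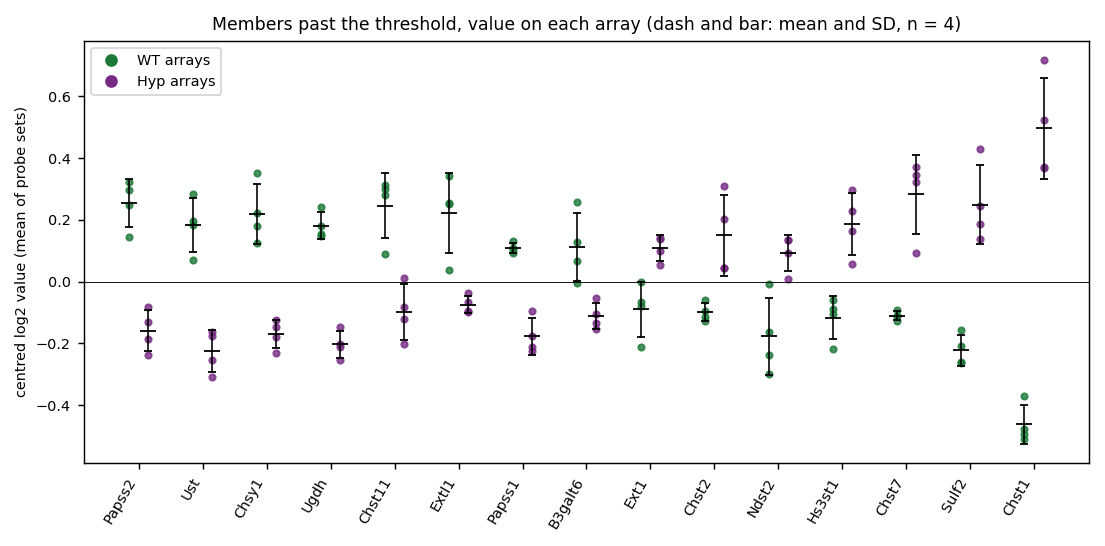
Centred log2 value (y axis) on each of the 4 WT and 4 Hyp arrays for the 15 genes that passed, ordered by their difference, with the mean and SD of each group. The Hyp and WT arrays did not overlap for any of these genes, and Chst1 had the widest gap, from -0.37 to 0.37.

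Both sulfotransferases of keratan-type chains on the list rose. Chst1, which sulfates galactose in keratan sulfate, read 0.37, 0.72, 0.52 and 0.37 on the Hyp arrays and -0.51, -0.48, -0.37 and -0.49 on the WT arrays. It rose by 0.96 ± 0.08 (limma adjusted p = 5.74e-05), the largest change among the 39 genes, with Hyp replicate 2 highest. With any single array left out its difference was at least 0.88. Chst2, which sulfates N-acetylglucosamine, read 0.04, 0.04, 0.31 and 0.20 on the Hyp arrays and -0.13, -0.06, -0.12 and -0.09 on the WT arrays. It rose by 0.25 ± 0.07 (adjusted p = 0.0311), but only 1 of its 3 probe sets passed, at 0.55 ± 0.09, the others lying at 0.05 ± 0.09 and 0.15 ± 0.07. The call on the mean was lost without Hyp replicate 3 or 4 or any WT array, where the difference lay between 0.20 and 0.26 with adjusted p from 0.0501 to 0.0887. It was also lost with the median over probe sets (0.19, adjusted p = 0.0814). Chst5, a related sulfotransferase outside the list, did not pass, at -0.11 ± 0.06 (adjusted p = 0.251). Nor did B3gnt7 and B4galt4 of the keratan chain, at 0.11 ± 0.08 and -0.0054 ± 0.09 (adjusted p = 0.395 and 0.977).

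Heparan sulfate chain enzymes changed in both directions. Ext1, which forms the heparan polymerase with Ext2, read 0.10, 0.14, 0.14 and 0.05 on the Hyp arrays and -0.07, -0.08, -0.0015 and -0.21 on the WT arrays. It rose by 0.20 ± 0.06 (limma adjusted p = 0.0417), with WT replicate 3 near 0 and nearest to Hyp. With 1 array left out, the call held only where that was WT replicate 3, and otherwise the difference lay between 0.16 and 0.22 with adjusted p from 0.0552 to 0.103, and neither probe set passed alone. It was also lost with array medians set to 0 (0.19, adjusted p = 0.0529). Ext2 lay at 0.01 ± 0.06 (adjusted p = 0.96), and its sign turned under other settings. Extl1, an exostosin-like glycosyltransferase, read -0.04, -0.10, -0.10 and -0.07 on the Hyp arrays and 0.34, 0.25, 0.25 and 0.04 on the WT arrays. It fell by 0.30 ± 0.07 (adjusted p = 0.0145), with WT replicate 4 lowest of the WT arrays, and with both WT replicate 3 and Hyp replicate 2 left out it lay at -0.28 (adjusted p = 0.0599). Extl3, which starts heparan chains, lay at 0.18 ± 0.05 (adjusted p = 0.0556), with no overlap between the genotypes.

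Of 7 measured enzymes that modify heparan, 2 rose and none fell. Hs3st1, a 3-O-sulfotransferase, read 0.06, 0.23, 0.16 and 0.30 on the Hyp arrays and -0.09, -0.10, -0.06 and -0.22 on the WT arrays. It rose by 0.30 ± 0.06 (limma adjusted p = 0.01), with Hyp replicate 1 nearest to the WT arrays. Ndst2, which swaps the N-acetyl group for sulfate, read 0.01, 0.09, 0.14 and 0.13 on the Hyp arrays and -0.24, -0.16, -0.01 and -0.30 on the WT arrays. It rose by 0.27 ± 0.07 (adjusted p = 0.0245), although Hyp replicate 1 and WT replicate 3 nearly met. The call was lost without Hyp replicate 2, 3 or 4 or WT replicate 1 or 4, with differences between 0.23 and 0.27 with adjusted p from 0.0561 to 0.0784. Hs6st1, a 6-O-sulfotransferase, read 0.02, -0.02, 0.11 and 0.18 on the Hyp arrays and -0.31, -0.25, 0.04 and -0.29 on the WT arrays. It lay at 0.27 ± 0.08 (adjusted p = 0.0539), with WT replicate 3 inside the Hyp range, and without that array it was 0.36 (adjusted p = 0.00439), while with array weights it was 0.32 (adjusted p = 0.0125). Hs6st2, with the same activity, read -0.03, 0.04, 0.07 and 0.02 on the Hyp arrays and -0.13, -0.04, -0.05 and 0.03 on the WT arrays. It lay at 0.07 ± 0.05 (adjusted p = 0.404) and the genotypes overlapped, with 1 of its 4 probe sets higher at 0.30 ± 0.07 and the other 3 between -0.04 and 0.05. Hs2st1 (2-O-sulfation), Glce (the C5 epimerase) and Hs3st3a1 (3-O-sulfation) lay at 0.04 ± 0.05, 0.02 ± 0.06 and -0.01 ± 0.08 (adjusted p = 0.667, 0.851 and 0.958).

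Of the endosulfatases, which remove 6-O-sulfate from finished heparan chains outside the cell, Sulf2 rose. It read 0.14, 0.43, 0.19 and 0.24 on the Hyp arrays and -0.26, -0.26, -0.16 and -0.21 on the WT arrays. Sulf2 rose by 0.47 ± 0.07 (limma adjusted p = 0.00114), with all 4 Hyp arrays above the WT arrays and Hyp replicate 2 highest. Of its 3 probe sets 2 passed, with the name suffixes _a_at (several transcripts of 1 gene) and _x_at, at 0.64 ± 0.07 and 0.59 ± 0.08. The other, with no such suffix, lay at 0.18 ± 0.13 (adjusted p = 0.466 over probe sets). Sulf1 read 0.12, -0.06, 0.42 and 0.21 on the Hyp arrays and -0.06, 0.0028, -0.12 and -0.06 on the WT arrays. It lay at 0.23 ± 0.09 (adjusted p = 0.117), with Hyp replicate 2 among the WT values, and without that array it was 0.31 (adjusted p = 0.0323).

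Hyaluronan synthases did not pass. Has1, Has2 and Has3 lay at 0.06 ± 0.07, -0.03 ± 0.07 and 0.13 ± 0.12 (limma adjusted p = 0.619, 0.813 and 0.524). Has2, the main synthase of developing limbs, read -0.10, 0.10, 0.03 and -0.08 on the Hyp arrays and 0.16, -0.01, 0.0033 and -0.08 on the WT arrays, so the genotypes overlapped. Has3 read 0.47 on Hyp replicate 3 and between -0.24 and 0.02 on the other 7 arrays.

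**Figure D3:**
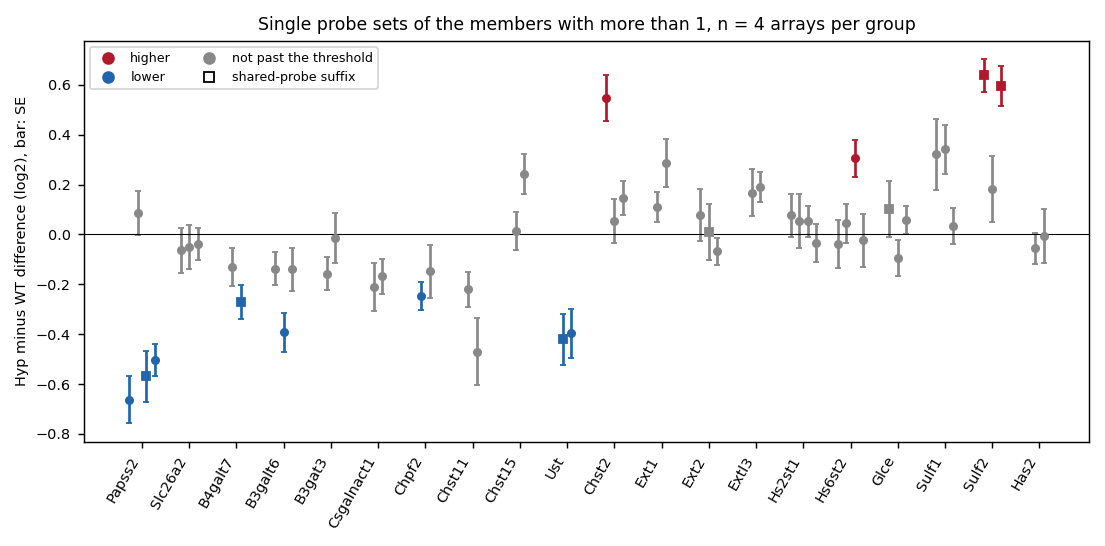
Difference between Hyp and WT (log2, y axis) at each probe set of the 20 genes with more than 1, with the SE as bars, squares for names with a shared-probe suffix and colours for the call over 45037 probe sets. The suffixes counted as shared include _a_at. One probe set of Papss2 lies at 0.08 while its other 3 lie between -0.66 and -0.50, and Sulf2 and Chst2 also split.

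Of the 72 probe sets, 7 were higher and 12 lower at an adjusted p under 0.05 over 45037 probe sets, of which 7.13% passed. Whether genes of the same step changed unequally was tested on the within-array difference of 14 pairs, chosen after their values were seen, by exact permutation of the array labels (two-sided, with 0.0286 as the lowest p that 4 against 4 arrays allow). With that lowest p, no single pair could pass after adjustment over the 14 pairs, and none did. Chst1 minus Chst2 averaged 0.35 ± 0.23 over the Hyp arrays (SD, n = 4) and -0.36 ± 0.07 over the WT arrays, a difference of 0.71 ± 0.12 (SE; exact permutation p = 0.0286, adjusted 0.2). For Chst7 minus Chst3 the difference was 0.40 ± 0.17 (exact permutation p = 0.0571, adjusted 0.2) and for Chsy1 minus Chpf it was -0.17 ± 0.05 (exact permutation p = 0.0571, adjusted 0.2). For Papss1 minus Papss2 it was 0.13 ± 0.07 (exact permutation p = 0.0857, adjusted 0.2) and for Sulf2 minus Sulf1 0.24 ± 0.16 (exact permutation p = 0.171, adjusted 0.267). Chst1 minus Chst2 was the only pair whose Hyp and WT arrays did not overlap. Chst2 entered as the mean of 3 probe sets, of which 1 passed, at 0.55 ± 0.09, so the size of this gap depends on that averaging.

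Other genes of the pathway gave the following counts, against 12.9% of all genes. Among 26 further synthesis and supply genes, 2 rose and 5 fell (median difference -0.03, 26.9% past the threshold). Chst13, another chondroitin 4-O-sulfotransferase, fell by 0.76 ± 0.06 (limma adjusted p = 5.42e-05), and its arrays ran from -0.49 to -0.28 in Hyp and from 0.28 to 0.48 in WT. Pxylp1, a phosphatase of the linker xylose, fell by 0.35 ± 0.05 (adjusted p = 0.00114). Slc35b2, the Golgi transporter of PAPS, fell by 0.28 ± 0.06 (adjusted p = 0.0159). Gfpt2, which opens the hexosamine pathway, rose by 0.27 ± 0.06 (adjusted p = 0.0143). Gfpt1, of the same step, fell by 0.20 ± 0.05 (adjusted p = 0.031). Slc35b2 lay at -0.25 without WT replicate 1 (adjusted p = 0.055). Among 20 genes of glycosaminoglycan breakdown 1 rose and 1 fell (10%): Hgsnat, an acetyltransferase of lysosomal heparan breakdown, rose by 0.24 ± 0.05 and Cemip, which takes part in hyaluronan breakdown, fell by 0.35 ± 0.07 (limma adjusted p = 0.00836 and 0.0078). Cemip lay at -0.23 with the median over its probe sets (adjusted p = 0.173).

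Core proteins that carry these chains also split. Of 21 chondroitin and keratan sulfate core proteins 2 rose and 6 fell (38.1%, median -0.08). Fmod (fibromodulin) and Lum (lumican), collagen-binding carriers of keratan sulfate, fell by 0.86 ± 0.09 and 0.62 ± 0.06 (limma adjusted p = 0.000214 and 0.000104). Bgn (biglycan) and Bcan (brevican) fell by 0.33 ± 0.06 and 0.82 ± 0.09 (adjusted p = 0.00373 and 0.000241). Acan (aggrecan), the main chondroitin sulfate core protein of cartilage and named here after its values were seen, read 0.34, 0.42, 0.61 and -0.03 on the Hyp arrays and -0.24, -0.25, -0.57 and 0.03 on the WT arrays. Acan rose by 0.59 ± 0.14 (adjusted p = 0.0225), with Hyp replicate 4 below WT replicate 4, and it missed the threshold without Hyp replicate 1, 2 or 3 or WT replicate 1, at differences between 0.50 and 0.60 with adjusted p from 0.054 to 0.0611. It also missed the threshold without both WT replicate 3 and Hyp replicate 2, at 0.46 (adjusted p = 0.087), and with the replicate number as a block (adjusted p = 0.0627). Of 14 heparan sulfate core proteins 4 rose and 4 fell (57.1%, median -0.03). Col18a1, a basement membrane collagen, rose by 0.83 ± 0.09 (adjusted p = 0.000186), and the glypicans Gpc1, Gpc4 and Gpc3 fell by 0.39 ± 0.05, 0.45 ± 0.07 and 0.35 ± 0.06 (adjusted p = 0.000394, 0.00264 and 0.00337). Glypicans did not all fall: Gpc6 rose by 0.22 ± 0.06 (adjusted p = 0.0314), and Gpc2 and Gpc5 did not pass (adjusted p = 0.848 and 0.872). Tgfbr3 and Hspg2 also rose, by 0.45 ± 0.11 and 0.26 ± 0.06 (adjusted p = 0.0204 and 0.0178), and Sdc3 fell by 0.27 ± 0.06 (adjusted p = 0.0173). Of 17 hyaluronan-binding proteins 2 rose and 2 fell (23.5%). Stab1, a scavenger receptor of macrophages and sinusoidal endothelium, rose by 1.08 ± 0.11 and Hapln1, the link protein of cartilage, rose by 0.62 ± 0.13 (adjusted p = 0.000161 and 0.0129). Without both WT replicate 3 and Hyp replicate 2, Hapln1 lay at 0.46 (adjusted p = 0.0508). Tnfaip6, which modifies hyaluronan, and Hapln4, a link protein, fell by 1.19 ± 0.15 and 0.60 ± 0.10 (adjusted p = 0.000611 and 0.003).

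**Figure D4:**
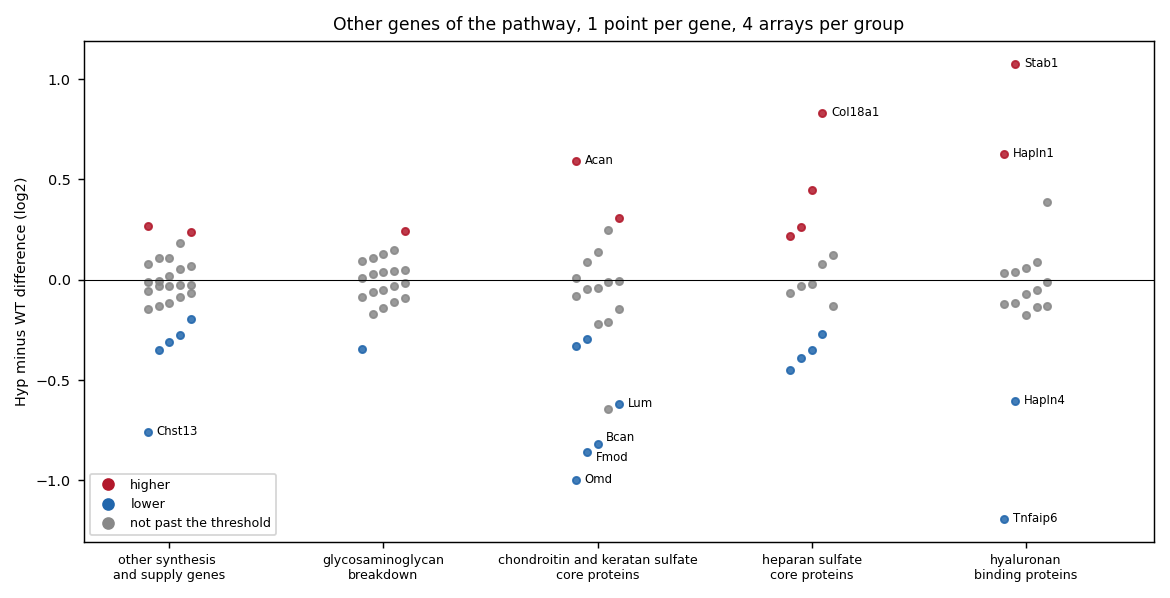
Difference between Hyp and WT (log2, y axis) for the other genes of the pathway in 5 lists, 1 point per gene, coloured by the call and named where a gene passed and differed by more than 0.5 on the log2 scale. Tnfaip6 at -1.19 and Stab1 at 1.08 lie farthest from 0.

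Markers of several cell types moved with genotype in the same RNA. Of 10 measured osteoblast markers 8 fell and 1 rose, and their mean ran from -0.26 to -0.10 on the Hyp arrays and from 0.13 to 0.26 on the WT arrays. The 8 glycosaminoglycan genes that fell share this direction by definition, so the match shows nothing about them. Macrophage markers rose in 10 of 11 cases (mean 0.16 to 0.39 in Hyp and -0.39 to -0.27 in WT). Endothelial markers rose in 11 of 12 (0.10 to 0.27 and -0.34 to -0.18). The 7 glycosaminoglycan genes that rose share that direction, again by definition. Mast cell markers rose in 6 of 8 cases (0.17 to 0.64 and -0.28 to -0.20) and erythroid markers in 6 of 7 (0.07 to 0.22 and -0.37 to -0.12). Chondrocyte markers rose in 6 of 16 cases and fell in 2, with overlapping means (-0.06 to 0.25 in Hyp and -0.26 to 0.04 in WT). Of 6 hypertrophic chondrocyte markers 2 rose and 3 fell, with a median difference of 0.05. The means over these markers did not overlap (0.06 to 0.38 in Hyp and -0.27 to -0.09 in WT), but the list did not rise as a group. Among these Col10a1, the collagen of hypertrophic cartilage, named after its values were seen, rose by 2.57 ± 0.28 (limma adjusted p = 0.000227), far more than the rest. Mmp13 rose by 0.52 ± 0.06 and Ihh lay at 0.31 ± 0.11 (adjusted p = 0.000274 and 0.0895). Mef2c, Pth1r and Alpl fell by 0.43 ± 0.08, 0.24 ± 0.07 and 0.21 ± 0.05 (adjusted p = 0.00431, 0.0351 and 0.0203). Pth1r and Alpl were in the osteoblast list as well. The part of these cell types in the differences of the glycosaminoglycan genes was not tested, and since levels cannot be read, no marker can be said to be at 0.

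**Figure D5:**
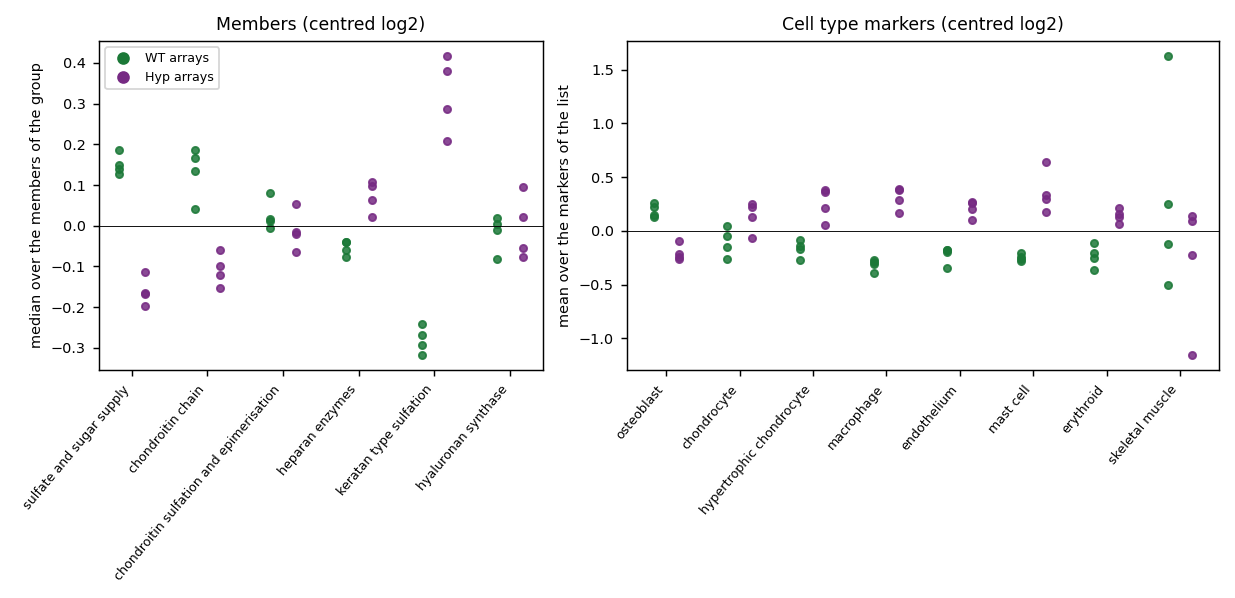
Left, median over the genes of each group (centred log2, y axis) on the 4 WT and 4 Hyp arrays. Right, mean over the markers of each cell type (centred log2, y axis) on the same arrays. Supply genes run from -0.20 to -0.11 in Hyp and from 0.13 to 0.19 in WT, and skeletal muscle markers reach 1.63 on WT replicate 3 and -1.16 on Hyp replicate 2.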

How the data were processed

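Biotin-labelled RNA of 8 samples, 4 per genotype, was hybridised to 1 array each. The authors deposited 1 value per probe set and array, made with RMA per the submitters' processing notes (version not given in the sources used here). RMA gives log2 values, and the deposited log2 values had a median of 0 within 5e-07 over the 8 arrays for every probe set, so they had been centred, a step the labels do not record. The log base is not stated and was taken as 2. Levels, detection and signal over background cannot be read, and the number of arrays limits the precision: the median SE of a gene's difference was 0.07.

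The table held 45101 probe sets, from which 64 controls were removed. The platform annotation gave 1 symbol for 34945, several for 932 and none for 9160, and symbols were updated through gene identifiers in RefSeq (GRCm38.p6), which held 34741 of the first. Values were averaged per gene, and the genotypes were tested by lmFit and eBayes of limma 3.58.1 in R 4.3.3, two-sided, with Benjamini-Hochberg adjustment over 18193 genes, or over 45037 probe sets for single probe sets. The procedure was tested on simulated gene means with the SDs of the real genes. It recovered 26 of 68 genes changed by 0.3, 51 of 66 changed by 0.5 and 65 of 66 changed by 1, with 8 false calls. Fewer genes were changed in the simulation than passed in the real data, where 2340 of 18193 did. The adjusted threshold was therefore stricter in the simulation, so these shares do not give the recovery of the real fit. A gene that did not pass may still differ. Promoter sequences were from RefSeq.

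Members and lists were chosen with earlier results of these data known. Named with values on each array were members that passed or had a probe set that passed. Hs6st1, Sulf1 and Has2 were given in the same way outside this rule, as neither they nor their probe sets passed. Up to 4 genes by smallest p were named from each other list of the pathway. Acan, further heparan sulfate core proteins and the hypertrophic chondrocyte markers were named after their values were seen. So were Chst5, B3gnt7, B4galt4 and Gfpt1. Numbers of replicates come from the titles. Arrays with the same number did not all deviate together (correlations of 0.15, -0.04, 0.26 and 0.18). Between arrays with different numbers the correlations ran from -0.27 to 0.20, so the 0.26 of replicate 3 was the highest. Whether the arrays were paired is not settled by this. The main fit did not take the number as a pairing. Alternatives covered normalization, array weights, the prior, choice of probe set, threshold, a block by replicate number and arrays left out. A fit without WT replicate 3 together with Hyp replicate 2, and the tests of gene pairs, were added after the data were seen.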

Additional observations from a re-analysis of the deposited data

Results flagged for a closer look

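In groups of 4 arrays, 1 array lay far from the other 3 for 5 of 116 groups checked (58 genes), where chance alone gives about 1 in 20. Chst11 on WT replicate 3 read 0.0898 against 0.28 to 0.31 on the other WT arrays. Has3 on WT replicate 4 read -0.24 against -0.0094 to 0.02. Bgn on Hyp replicate 3 read -0.0730 against -0.28 to -0.26. Col18a1 on Hyp replicate 4 read 0.38 against 0.350 to 0.352, a gap that is wide only beside the closeness of the other 3. Stab1 on WT replicate 3 read -0.32 against -0.75 to -0.69.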

How the results depend on the processing

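Of the 15 genes that passed, 7 (Papss1, Papss2, Ugdh, Chsy1, Chst7, Ust and Chst1) stayed past the threshold under all 20 alternatives. Hs3st1 did so under 18 of 19, all but the threshold of 0.01. Its only probe set has the suffix _a_at, counted here as a shared-probe suffix although it marks several transcripts of 1 gene. Counts without the suffix thus also leave out such probe sets. None of the 15 changed direction. The count that rose (7) was 4 with probe sets free of a shared-probe suffix, 3 at a threshold of 0.01 and from 4 to 7 with 1 array left out. The count that fell (8) was 6 at a threshold of 0.01, 6 without both WT replicate 3 and Hyp replicate 2, 11 at a threshold of 0.1 and from 7 to 10 with 1 array left out. Chondroitin enzymes that fell (3) numbered 5 at a threshold of 0.1 and from 3 to 5 with 1 array left out. Heparan enzymes that rose (4) numbered 1 without the suffix, 1 at a threshold of 0.01 and from 2 to 5 with 1 array left out, and those that fell (1) numbered 0 at 0.01 and 0 without both WT replicate 3 and Hyp replicate 2. Other pathway genes that rose (11) numbered 7 without the suffix, 7 with the probe set of largest SD, 3 at 0.01 and from 5 (without WT replicate 1) to 11 with 1 array left out. Over all genes, 1190 rose, 407 at 0.01, 1891 at 0.1 and from 605 (without WT replicate 1) to 1437 (without WT replicate 3) with 1 array left out, and 1150 fell, 618 at 0.01. The signed median over the members (-0.0062) was -0.0559 with the probe set of smallest p and from -0.0246 to 0.0350 with 1 array left out, so its sign is not settled. With the replicate number as a replicate block, 6 members rose and 8 fell; B3galt6 and Chst2 missed the threshold and Chpf passed, and Acan missed it too. Signs turned only for 8 genes that never passed. Ext2 lay at -0.015 with quantile normalization, -0.0042 with array medians at 0, -0.011 with array weights, -0.0675 with the probe set of smallest p, -0.00997 without both arrays and from -0.0382 to 0.0351 with 1 array left out. Glce lay at -0.0020 with array weights, -0.0177 without the suffix, -0.0033 with the median over probe sets, -0.0936 with the probe set of smallest p, -0.0490 without both arrays and from -0.0246 to 0.0491 with 1 left out. Without both arrays Hs2st1 lay at -9.0e-05 and Hs3st3a1 at 0.0446. With 1 array left out, Slc26a2 ran from -0.10 to 0.0079, Chst3 from -0.11 to 0.11, Hs3st3a1 from -0.0501 to 0.0564, Has2 from -0.0690 to 0.0177 and Has3 from -0.00081 to 0.19. Where no cause is given, the cause was not tested. A filter on low values could not be run without levels.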
